A study of Mus musculus with 2 samples.

Results

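The 39 genes described here encode the MYC network of transcription factors, the RNA polymerase I apparatus and the nucleolar proteins that process ribosomal RNA. They were taken by gene name from 34745 gene rows, were listed by function with earlier results of these data known, and all 39 were found on 1 row each. RNA came from splenic regulatory T (Treg) cells, the CD4+ T cells that express the transcription factor Foxp3 and restrain immune responses. There was 1 library from poh1 fl/fl Foxp3Cre+ mice, called the knockout library, and 1 library from poh1+/+ Foxp3Cre+ mice, called the wild-type library. All mice were C57BL/6 and 2 weeks old, and the cells of both genotypes carried Foxp3Cre and were sorted by its YFP reporter. This Cre is designed to delete only in cells that express Foxp3, and poh1 in other cells of the host was not measured. The number of mice behind a library is not stated. POH1, the product of the mouse gene Psmd14, is the deubiquitinase in the lid of the proteasome, and the comparison asks how its loss alters the Treg transcriptome.

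MYC binds DNA as a dimer with MAX and activates genes of growth, many of them in ribosome production. The MXD proteins, MXI1 and MNT also dimerise with MAX, compete for the same CACGTG sequence (the E-box) and repress. RNA polymerase I transcribes the long ribosomal RNA precursor in the nucleolus, where small nucleolar ribonucleoproteins (snoRNPs) modify it and assembly factors cut, fold and pack it into the small and the large subunit. T cells enlarge their nucleoli and raise MYC when they leave rest, and several, not all, MXD proteins are known from differentiating and resting cells.

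The libraries held 14544212 counts (knockout) and 18124611 counts (wild type) in genes, and the members had between 185 and 26241 counts each. Psmd14 had 463 counts in the knockout library and 1619 counts in the wild-type library, 2.81-fold lower (2.53 to 3.12), in the direction of the labels. The counts cover the whole gene, so the part of the floxed exons in them is not known. Foxp3 was at 1073 CPM in the knockout library and 671 CPM in the wild-type library (library totals scaled by TMM), so the defining marker of Treg cells was present in both. Ranges in parentheses are exact 95% intervals of counting error, which hold no spread between mice. With 1 library per genotype there was no replicate check and no significance test. A gene is called higher or lower here where its interval lay wholly beyond 1.5-fold. Of 13464 genes at 1 CPM or more in either library, 9.58% were called higher and 12.3% lower. Foxp3 was called higher, with a ratio of 1.60 (1.56 to 1.64). Of the 9 Treg and T cell markers, 2 were called higher and 2 lower, and 6 had a ratio below 1. The other gene called higher was Il2ra, the interleukin-2 receptor alpha chain and the most abundant of the 9, at 1530 CPM in the knockout library and 989.8 CPM in the wild-type library. The genes called lower were Ctla4, an inhibitory receptor, with a ratio of 0.628 (0.613 to 0.643), and Ikzf2, the transcription factor Helios, with a ratio of 0.637 (0.620 to 0.655). The part of these differences in the members' ratios was not tested.

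The members leaned lower in the knockout library, by small amounts, with the MYC network apart. Of the 39 members, all were at 1 CPM or more, 1 was called higher (Mxd1) and 3 were called lower (Mxd4, Fbl and Nhp2). These shares, 2.56% and 7.69%, were below those of all measured genes. Among the 7884 genes at 20 CPM or more, 8.87% were called higher and 10.5% lower. Beyond the stricter limit of 2-fold, 1 member was higher and 1 lower, against 4.34% and 6.63% of measured genes. With looser limits the lean was plainer. Beyond a ratio of 5 to 4, 1 member was higher and 15 were lower (38.5%), against 16.7% and 19.5% of measured genes. With intervals merely off 1, 9 members were higher (23.1%) and 26 lower (66.7%), against 34.3% and 35.2% of measured genes. Of genes at 20 CPM or more, 39.3% were higher and 39% lower by this rule. The log2 ratio (knockout over wild type) had a median of -0.33 over the members and of -0.01 over all measured genes. Outside the MYC network, 28 of 33 members had a ratio below 1, which is 84.8%, against 50.4% of all measured genes and 50.1% of genes at 20 CPM or more. Intervals lay wholly below 1 for 25 of these 33 and wholly above 1 for 4 (Rrn3, Nop56, Nop14 and Nob1), against 39% and 39.3% of genes at 20 CPM or more. The lowest 25% of all ratios held 14 of the 33 and the highest 25% held 1 (Nob1). The 33 genes summed to 4169 CPM in the knockout library and 5372 CPM in the wild-type library, 1.29-fold lower (1.27 to 1.30). Ncl and Npm1 together gave 1755 CPM and 2305 CPM of these sums. In bulk RNA, fewer cells of an expressing kind and less RNA per cell cannot be told apart.

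**Figure D1:**
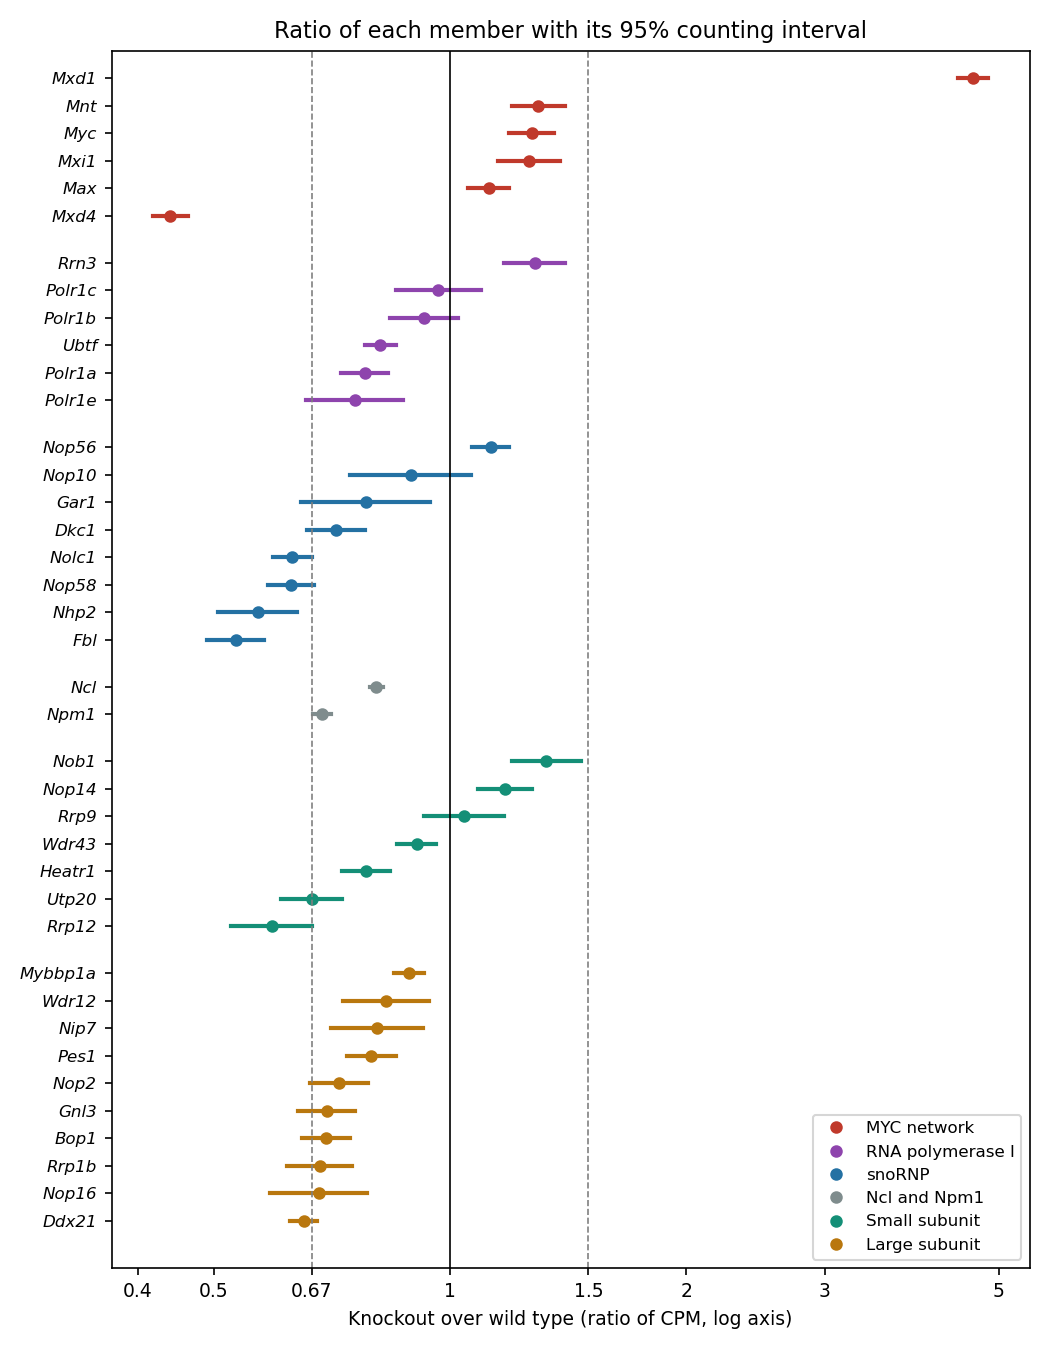
Ratio of knockout to wild type for each of the 39 members (log axis), grouped by role, with points for the ratio and lines for the 95% counting interval. Dashed lines mark 1.5-fold; Mxd1 at 4.64 and Mxd4 at 0.44 stand outside the other members, and all 10 large-subunit factors lie below 1.

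The promoters of 5 members are shown because the E-box is the shared DNA target of the MYC network, and because they include the network genes that differed most and a pair of E-box genes with opposite ratios. Each is the 250 bases before the annotated start, 5′ to 3′ on the gene's strand, from RefSeq on GRCm38.p6, with CACGTG in capitals. Mxd1 (chr6:86669160-86669409, minus strand) holds no CACGTG in this window, and Mxd4 (chr5:34187711-34187960, minus strand) holds 1.
Mxd1: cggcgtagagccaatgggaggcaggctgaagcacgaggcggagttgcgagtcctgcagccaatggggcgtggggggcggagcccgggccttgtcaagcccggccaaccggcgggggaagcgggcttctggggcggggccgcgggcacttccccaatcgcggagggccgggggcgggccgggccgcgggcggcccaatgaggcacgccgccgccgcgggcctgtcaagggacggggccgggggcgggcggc
Mxd4: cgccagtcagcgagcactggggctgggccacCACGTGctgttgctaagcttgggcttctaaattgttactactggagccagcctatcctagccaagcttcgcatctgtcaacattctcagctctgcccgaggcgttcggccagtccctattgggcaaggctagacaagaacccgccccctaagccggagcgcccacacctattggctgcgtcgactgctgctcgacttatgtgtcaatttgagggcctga
Mnt (chr11:74830674-74830923, plus strand) holds 1, Rrn3 (chr16:13780449-13780698, plus strand) holds 2 and Nop2 (chr6:125131633-125131882, plus strand) holds 1.
Mnt: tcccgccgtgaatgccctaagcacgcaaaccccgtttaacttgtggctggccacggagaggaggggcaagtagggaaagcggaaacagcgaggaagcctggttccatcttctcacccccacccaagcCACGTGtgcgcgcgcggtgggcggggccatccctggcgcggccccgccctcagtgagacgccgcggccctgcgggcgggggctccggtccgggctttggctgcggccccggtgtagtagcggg
Rrn3: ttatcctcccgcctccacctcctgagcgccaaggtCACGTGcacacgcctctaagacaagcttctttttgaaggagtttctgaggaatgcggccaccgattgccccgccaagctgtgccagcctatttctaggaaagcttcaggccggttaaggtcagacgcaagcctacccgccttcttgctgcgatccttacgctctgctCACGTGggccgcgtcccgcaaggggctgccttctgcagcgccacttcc
Nop2: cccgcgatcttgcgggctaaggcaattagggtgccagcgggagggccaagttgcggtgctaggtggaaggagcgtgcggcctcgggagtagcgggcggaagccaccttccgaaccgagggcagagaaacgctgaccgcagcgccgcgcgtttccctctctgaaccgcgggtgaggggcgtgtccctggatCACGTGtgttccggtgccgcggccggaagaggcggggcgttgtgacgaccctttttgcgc
RefSeq windows matched 34 of the 39 members, all but Bop1, Fbl, Rrp12, Npm1 and Myc. CACGTG, which reads the same on both strands, lay within the whole window of 250 bases before to 50 after the start in 9 of these 34 (Mxd4, Mnt, Max, Rrn3, Nop2, Utp20, Pes1, Mybbp1a and Wdr43), or 26.5%, against 8.09% of 27025 genes in the table and 11.6% of the 9528 measured genes there. In the 250 bases before the start alone the share was 4 of 34, or 11.8%, against 9.76% of measured genes. Among members with intervals wholly below 1 the whole window held the motif in 6 of 22, and among those wholly above 1 in 3 of 8, so genes with the motif stood on both sides.

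The largest difference among all members was in Mxd1, which encodes the MAX partner MAD1. It had 9781 counts (672 CPM) in the knockout library and 2627 counts (145 CPM) in the wild-type library, 4.64-fold higher (4.44 to 4.84). By the interval bound nearest to 1 it ranked 100 from the highest of 13464 measured genes and 29 among those at 20 CPM or more. By level it ranked 156 from the top in the knockout library and 1657 in the wild-type library. Mxd1 lies on chromosome 6 (86647042 to 86669161, minus strand, mm10), and no other annotated gene overlaps its exons.

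Its relative Mxd4 went the other way, with 2086 counts (143 CPM) in the knockout library and 5899 counts (326 CPM) in the wild-type library, 2.27-fold lower (2.16 to 2.39). There were thus 4.69 Mxd1 counts for each Mxd4 count in the knockout library and 0.445 in the wild-type library, a 10.5-fold change of this ratio (9.85 to 11.2) that no scaling of the libraries affects. Mxd3, another gene of the family that is not among the 39, had 120 counts and 319 counts, 2.13-fold lower (1.73 to 2.66). The antisense gene Gm42846 overlaps 6.06% of the Mxd4 exons, and the library kit does not separate strands.

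Myc itself was modestly higher in the knockout library, with 1802 counts (124 CPM) there and 1767 counts (97.5 CPM) in the wild-type library, a ratio of 1.27 (1.19 to 1.36). Its partner Max was at 140.1 CPM and 125 CPM, a ratio of 1.12 (1.06 to 1.19). The other MAX-binding repressor genes, Mnt at 90.9 CPM and 70.2 CPM and Mxi1 at 65.4 CPM and 51.9 CPM, had ratios of 1.29 (1.20 to 1.40) and 1.26 (1.15 to 1.38). Within a library, counts of Mnt per count of Myc hardly differed, 0.734 in the knockout and 0.72 in the wild-type library, a change of 1.02-fold (0.92 to 1.13). None of these 4 genes was called, and all 4 intervals lay above 1. Of the paralogs of Myc, Mycl had 12 counts and 63 counts, 4.22-fold lower (2.25 to 8.59). Mycn had 0 counts in the knockout library, which allows up to 0.206 CPM, and 3 counts in the wild-type library.

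Per kilobase of annotated exon, Mxd1 was the most abundant of these genes in the knockout library. This length merges all annotated exons of a gene, so it compares levels of different genes only roughly. The level of Mxd1 was 95.1 CPM per kilobase in the knockout library, against 45.6 for Myc, 38.9 for Max, 19.6 for Mnt, 16.9 for Mxd4, 9.59 for Mxi1 and 3.48 for Mxd3. In the wild-type library, by annotated exon length, Mxd4 (38.4), Myc (35.9) and Max (34.7) had similar levels, above Mxd1 (20.5), Mnt (15.2), Mxi1 (7.60) and Mxd3 (7.43). The 5 repressor genes together amounted to 145 CPM per kilobase in the knockout library and 89.1 in the wild-type library, of which Mxd1 made up 65.7% and 23.01%. That sum was 3.17 times the level of Myc in the knockout library and 2.48 times in the wild-type library. The authors' FPKM values imply other gene lengths, 3.66 times the annotated exon length for Myc and 0.557 times for Max. With the FPKM-implied lengths the sum was 10.3 and 7.90 times Myc. The length so implied for Myc, 9.93 kilobases, exceeds its whole annotated gene with introns (chromosome 15, 61985391 to 61990374). The level of Myc by that length, and its place relative to the repressors, is therefore not reliable. The order of the genes in the wild-type library also depends on the length used. With the FPKM-implied lengths Max was highest there at 62.3, followed by Mxd4 (32.3), Mxd1 (18.3), Mnt (12.3), Myc (9.82), Mxi1 (9.23) and Mxd3 (5.43). Mxd1 was the most abundant in the knockout library with these lengths as well, at 84.8 against 69.9 for Max and 12.5 for Myc.

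**Figure D2:**
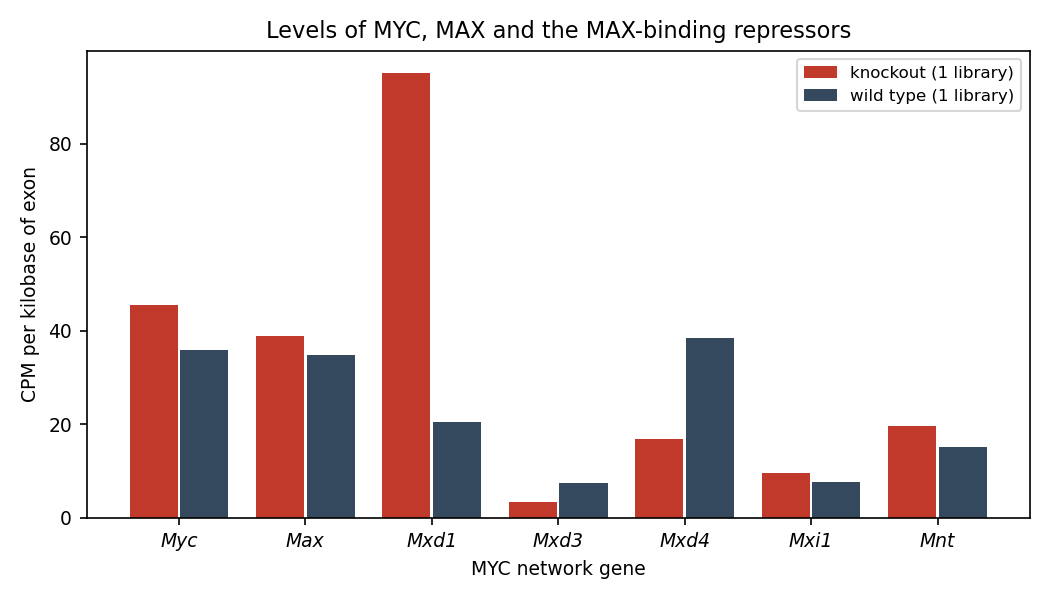
Level of 7 MYC network genes (CPM per kilobase of annotated exon) in the knockout library (left bars) and the wild-type library (right bars), 1 library each and no error bars. Mxd1 stands at 95.1 against 20.5 and Mxd4 at 16.9 against 38.4, while Myc, Max, Mxi1 and Mnt differ by less than 1.5-fold.

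None of the 6 genes of RNA polymerase I transcription was called, against 9.58% called higher and 12.3% called lower over all measured genes. The median log2 ratio of the 6 was -0.20. The largest subunit gene Polr1a was at 91.8 CPM in the knockout library and 118 CPM in the wild-type library, a ratio of 0.779 (0.727 to 0.835). Polr1b, the other large catalytic subunit, was at 46.3 CPM and 50.0 CPM, a ratio of 0.927 (0.837 to 1.02). Relative to Polr1b, counts of Polr1a were 1.19-fold lower in the knockout library (1.05 to 1.35). Polr1c, a subunit shared with RNA polymerase III, was at 31.4 CPM and 32.5 CPM, and its interval also held 1. Polr1e had 312 counts and 514 counts, a ratio of 0.756 (0.655 to 0.872). Ubtf, whose product UBF bends and opens ribosomal DNA, was at 211 CPM and 259 CPM, a ratio of 0.815 (0.779 to 0.854).

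Rrn3, which encodes the initiation factor TIF-IA that brings the polymerase to its promoter, had the opposite sign. It had 970 counts (66.7 CPM) in the knockout library and 943 counts (52.0 CPM) in the wild-type library, a ratio of 1.28 (1.17 to 1.40). For each Polr1a count there were 0.726 Rrn3 counts in the knockout library and 0.442 in the wild-type library, 1.65-fold more (1.47 to 1.84). Of 15 further genes of the polymerase and its promoter factor, 0 were called by the same interval rule; 6 intervals lay below 1 and 2 above, with a median of -0.16.

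The snoRNP genes held both of the called members outside the MYC network and had a median log2 ratio of -0.57. Fbl encodes fibrillarin, the methyltransferase of box C/D snoRNPs, and had 808 counts (55.5 CPM) in the knockout library and 1887 counts (104 CPM) in the wild-type library. It was 1.88-fold lower (1.73 to 2.04). Its partner Nop58 had 1297 counts (89.2 CPM) and 2574 counts (142 CPM), a ratio of 0.628 (0.587 to 0.671). The ratio was past 1.5-fold, but its interval ended just short of that limit. The other core protein of the same particle, Nop56, had 2581 counts (177 CPM) and 2853 counts (157 CPM), a ratio of 1.13 (1.07 to 1.19).

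These genes of a common particle thus differed in unlike ways. Fbl counts per Nop56 count were 0.313 in the knockout library and 0.661 in the wild-type library, 2.11-fold lower (1.91 to 2.33). Nop58 counts per Nop56 count were 0.502 and 0.902, 1.79-fold lower (1.65 to 1.96). The Nop56 count is uncertain to a degree, because exons of 5 annotated genes, 4 of them snoRNAs on the same strand and the other the opposite-strand gene Idh3b, overlap 8.12% of its exon length.

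In the box H/ACA particle, which pseudouridylates RNA and also stabilises telomerase RNA, Nhp2 differed most. Nhp2 had 434 counts (29.8 CPM) in the knockout library and 950 counts (52.4 CPM) in the wild-type library, 1.76-fold lower (1.57 to 1.97). The catalytic subunit gene Dkc1 (dyskerin) was at 59.9 CPM and 83.8 CPM, a ratio of 0.715 (0.658 to 0.778). Gar1 had 185 and 295 counts, a ratio of 0.781 (0.646 to 0.942), and Nop10 had 221 and 309 counts, a ratio of 0.891 with an interval that held 1 (0.746 to 1.06). Nhp2 counts per Dkc1 count were 1.26-fold lower in the knockout library (1.09 to 1.45), while Nop10 counts per Dkc1 count were higher, by a ratio of 1.245 (1.02 to 1.51). For Gar1 per Dkc1 no difference was detectable at this depth (0.887 to 1.34). Nolc1, the chaperone of snoRNPs also named NOPP140, was at 119 CPM and 189 CPM, a ratio of 0.630 (0.594 to 0.668).

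Ncl and Npm1, which encode the abundant nucleolar proteins nucleolin and nucleophosmin, had the highest counts of all members. Ncl had 16963 counts (1166 CPM) in the knockout library and 26241 counts (1448 CPM) in the wild-type library, a ratio of 0.805 (0.790 to 0.821). Npm1 had 8574 counts (589 CPM) and 15531 counts (857 CPM), a ratio of 0.688 (0.670 to 0.706), and was 1.17-fold lower relative to Ncl (1.13 to 1.21). Because of their depth both intervals were narrow and lay within 1.5-fold. Annotated pseudogenes include 8 near copies of Npm1, 5 of Nop56 and 2 each of Fbl, Dkc1, Pes1 and Wdr12. Ncl, Nhp2, Gar1, Mxi1, Ddx21, Mybbp1a and Nip7 have 1 each. Of the near copies of Npm1, 1 was counted, with 64 counts in the knockout library and 98 counts in the wild-type library. Reads that match several places may have been lost or shared.

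Genes of the small subunit pathway were divided, with 0 of 7 called and a median log2 ratio of -0.14. Over all measured genes, 9.58% were called higher and 12.3% lower. Rrp12, known from yeast for export of ribosomal precursors, had 413 counts (28.4 CPM) in the knockout library and 867 counts (47.8 CPM) in the wild-type library. Its ratio was 0.593 (0.526 to 0.668), so the interval ended just short of 1.5-fold. Scaled by DESeq2 size factors instead, Rrp12 and Nolc1 were also called lower, which made 5 members called lower in place of 3. Among scaffold genes of the small subunit processome, Utp20 was at 51.6 CPM and 77.5 CPM, a ratio of 0.666 (0.609 to 0.728), and Heatr1 at 88.5 CPM and 113 CPM, a ratio of 0.782 (0.729 to 0.839). Wdr43 was closer to even, at 146 CPM and 161 CPM, a ratio of 0.907 (0.857 to 0.959).

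The other small subunit members had ratios above 1. Nob1, the endonuclease that makes the final cut of the small subunit RNA, had 796 counts (54.7 CPM) in the knockout library and 748 counts (41.3 CPM) in the wild-type library, a ratio of 1.33 (1.20 to 1.47). Nop14, a processome factor, was at 81.0 CPM and 69.0 CPM, a ratio of 1.17 (1.08 to 1.27). Rrp9 was at 36.4 CPM and 35.0 CPM, with an interval that held 1 (0.926 to 1.17).

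All 10 large subunit members had intervals below 1, against 35.2% of measured genes and 39% of genes at 20 CPM or more. None of the 10 intervals was past 1.5-fold, while 12.3% of measured genes were called lower. The median log2 ratio of the 10 was -0.50. They summed to 899.7 CPM in the knockout library and 1220 CPM in the wild-type library (1.36-fold lower, 1.33 to 1.39). The RNA helicase gene Ddx21 had 3818 counts (262 CPM) in the knockout library and 7300 counts (403 CPM) in the wild-type library, a ratio of 0.651 (0.626 to 0.678). Nop16 and Rrp1b had ratios of 0.681 (0.590 to 0.784) and 0.682 (0.621 to 0.749). Gnl3, which encodes nucleostemin, was at 59.5 CPM and 85.5 CPM, a ratio of 0.696 (0.640 to 0.757). Nop2, an RNA methyltransferase gene, was at 58.9 CPM and 81.6 CPM, a ratio of 0.722 (0.663 to 0.786). Nip7 at 0.807 (0.706 to 0.923) and Mybbp1a at 0.886 (0.848 to 0.927) were nearer to even.

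The PeBoW complex joins the products of Pes1, Bop1 and Wdr12 in maturation of the large subunit. Bop1 was at 83.2 CPM in the knockout library and 119.6 CPM in the wild-type library, a ratio of 0.695 (0.648 to 0.746). Pes1 was at 83.8 CPM and 105.5 CPM, a ratio of 0.794 (0.738 to 0.854), and Wdr12 at 28.5 CPM and 34.4 CPM, a ratio of 0.830 (0.731 to 0.941). Relative to each other they differed little, Bop1 being 1.14-fold lower per Pes1 count (1.03 to 1.26), while the interval for Wdr12 per Pes1 count held 1 (0.902 to 1.21).

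**Figure D3:**
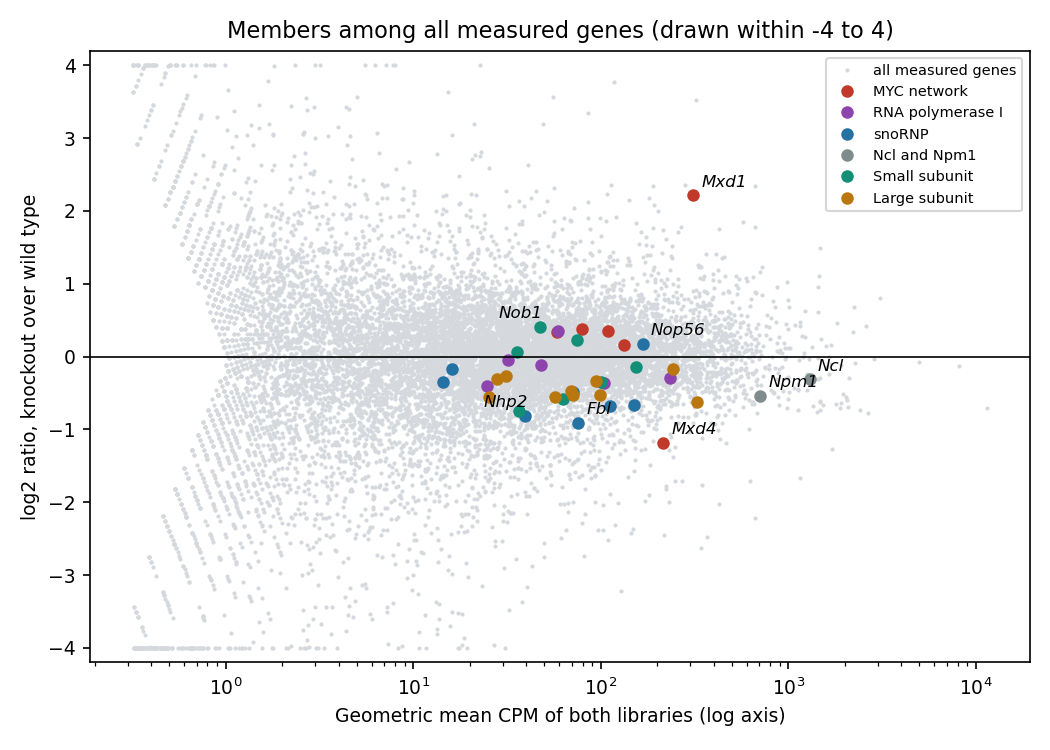
Log2 ratio of knockout to wild type against the geometric mean CPM (log axis) for 13464 measured genes in grey, drawn at -4 or 4 where they lie beyond, and the 39 members in colour by role. Most members sit slightly below 0 within the grey cloud, and Mxd1 at 2.21 and Mxd4 at -1.18 are the members farthest from 0.

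Other genes of ribosome production, taken by function, were less shifted than the members. Of 118 measured genes (122 listed) of RNA polymerase I, the small and the large subunit pathways and the RNA exosome, 2 were called higher and 3 lower, with a median log2 ratio of -0.11. The shares called, 1.69% higher and 2.54% lower, were below those of all measured genes (9.58% and 12.3%). Ratios were below 1 in 76 of the 118, or 64.4%, against 50.4% of all measured genes. The called genes were Utp23, with 286 counts in the knockout library and 127 counts in the wild-type library (2.80-fold higher, 2.27 to 3.48), and the exosome cofactor gene C1d, with 525 and 309 counts (2.12-fold higher, 1.84 to 2.44). The 3 lower genes were Rrp15 (179 and 523 counts, 2.35-fold lower, 1.98 to 2.80), Pno1 (317 and 715 counts, 1.81-fold lower, 1.58 to 2.07) and Rsl24d1 (227 and 502 counts, 1.78-fold lower, 1.51 to 2.09). The difference between the members and these genes was not tested.

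Transcripts of small subunit ribosomal proteins and of snoRNA hosts had medians of the other sign. Of 32 genes of small subunit ribosomal proteins, 24 had a ratio above 1, with a median log2 ratio of 0.18, and 1 was called lower, Rpsa, at 1650 CPM in the knockout library and 2655 CPM in the wild-type library (1.61-fold lower, 1.58 to 1.63). Ratios were below 1 in 25% of these 32 genes, against 50.4% of all measured genes. The sum of the 32 genes did not share the sign of their median, at 11111 CPM and 11327 CPM, a ratio of 0.981 (0.975 to 0.987). Ribosomal protein genes have many near copies in the genome, so these counts are uncertain. Of 8 measured snoRNA host genes 0 were called, and 4 intervals lay above 1 and 0 below, with a median of 0.31.

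Among 32 other known MYC targets, from polyamine, nucleotide and chaperone genes, 29 had a ratio below 1 (90.6%, against 50.4% of all measured genes). Of the 32, 9 were called lower (28.1%) and 1 higher, against 12.3% and 9.58% of all measured genes. The median log2 ratio of the 32 was -0.56. Odc1, the rate-limiting enzyme of polyamine synthesis, had 945 counts (65.0 CPM) in the knockout library and 6103 counts (337 CPM) in the wild-type library, 5.19-fold lower (4.84 to 5.56). C1qbp, a mitochondrial matrix protein gene, was at 51.0 CPM and 100.1 CPM, 1.96-fold lower (1.80 to 2.14). The called higher gene was Ccnd2, the gene of cyclin D2, at 912 CPM and 499.5 CPM, 1.83-fold higher (1.78 to 1.88). In a list of 14 measured further network, cofactor and MYC-degrading genes, 1 was called higher (Mlxip, 1.59-fold, 1.51 to 1.67) and 3 lower, Mycl and Mxd3 with the F-box gene Skp2 (2.24-fold lower, 1.78 to 2.86).

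**Figure D4:**
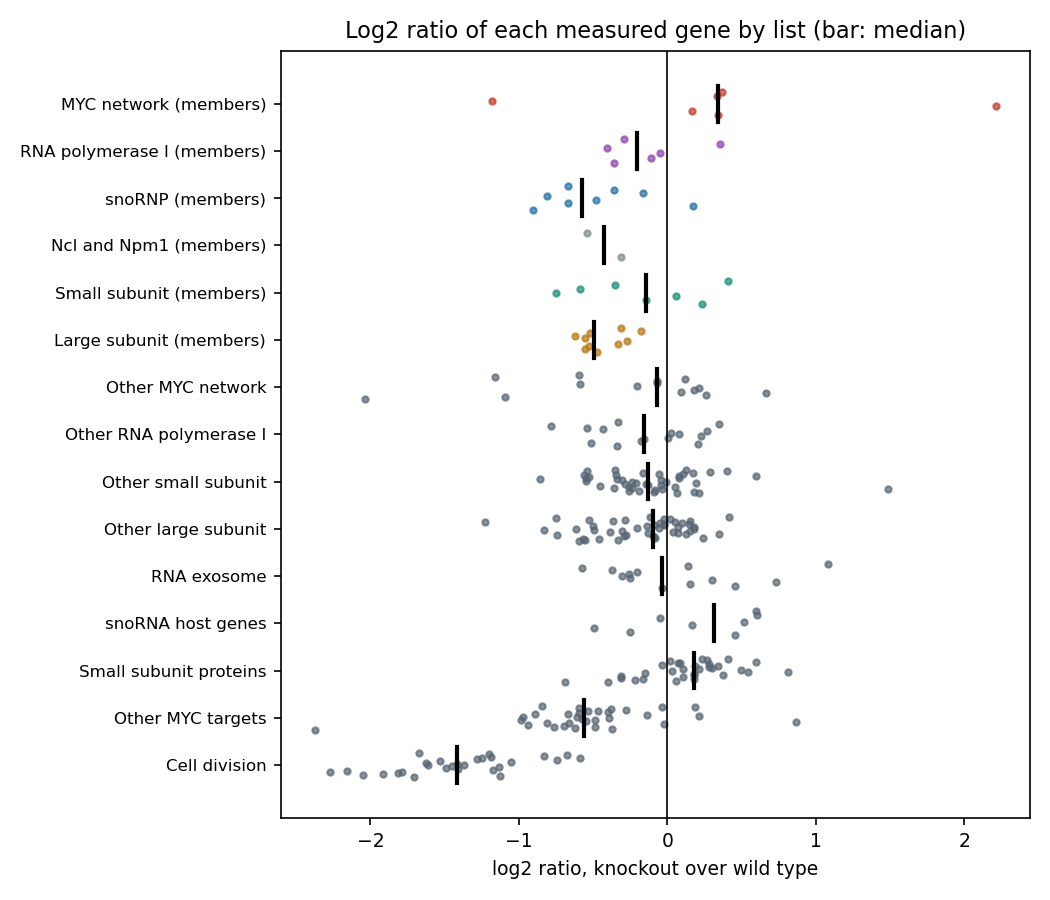
Log2 ratio of knockout to wild type for each measured gene of the 6 member roles and of 9 further lists, with a black bar at the median of each list. Medians run from -1.42 in cell division and -0.57 in the snoRNP members to 0.34 in the MYC network members.

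Genes of cell division were lower in the knockout library, and markers of other cell types differed in both directions. Of 28 cell division genes, 27 were called lower and 0 higher, with a median log2 ratio of -1.42 and a sum of 2003 CPM in the knockout library and 4884 CPM in the wild-type library. Plk1 (4.83-fold, 4.17 to 5.62) and Aurka (4.47-fold, 3.69 to 5.45) were the lowest. Of 12 B cell markers 9 were called lower, and without the most abundant, Cd74, each was at most at 12.3 CPM in the knockout library and 25.9 CPM in the wild-type library. Of 11 measured erythroid markers 10 were called lower and Gata1 higher, at 108 CPM and 29.7 CPM, while the globin gene Hbb-bs was at 8.04 CPM and 27.4 CPM. Dendritic cell markers were called lower in 4 of 7, with the most abundant, Cst3, at 43.9 CPM in the knockout library and 45.6 CPM in the wild-type library and Xcr1 and Clec9a at 0 counts in the knockout library, and neutrophil markers in 4 of 5 measured, with the most abundant, Ngp, at 2.61 CPM and 5.91 CPM. Camp and S100a8 were at 0 counts in the knockout library, Retnlg in the wild-type library and Elane in both. Macrophage markers had a sum of 374 CPM and 321 CPM, with 1 of 9 called higher, 7 of 9 ratios above 1 and the most abundant, Vcam1, at 120 CPM and 115 CPM. Both CD8 T cell genes were called higher, Cd8a at 26.1 CPM and 7.40 CPM and Cd8b1 at 21.3 CPM and 11.4 CPM. Of 6 NK cell markers, 3 were measured, with 1 called higher (Gzma, at 9.07 CPM and 2.10 CPM) and 1 lower, a sum of 10.04 CPM and 4.47 CPM, and Klra8 and Klre1 at 0 counts in both libraries and Ncr1 in the knockout library. The part of cell division and of these other cells in the members' ratios was not tested. Across the 33 members outside the MYC network the log2 ratio had a Spearman correlation of -0.09 with exon length and -0.11 with level, as a description over genes that share both libraries.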

How the data were processed

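RNA of Treg cells was measured by RNA-seq in 2 libraries, 1 per genotype, made with a TruSeq kit that does not mark strand. The submitters' processing notes name TopHat, HTSeq and mm10; their versions and the gene annotation are not stated there. Each deposited table lists raw counts and FPKM by gene name. The deposited FPKM values were used only as an alternative and for the lengths they imply, which ranged from 0.275 to 3.72 times the annotated exon length of the members.

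Counts were scaled with TMM in edgeR 4.0.16 (R 4.3.3) and given as CPM. No model was fitted. Each ratio carries a 95% Clopper-Pearson interval, exact for the 2 counts given their sum, and a ratio of within-library count ratios has an exact conditional odds ratio interval. Both cover counting error only and hold no spread between mice. The reads carry no molecular identifiers and are not independent, so these intervals can be too narrow even for counting error. Depth was 14544212 and 18124611 counts, and a count of 0 allows 3 counts, or 0.206 CPM in the knockout and 0.166 CPM in the wild-type library. log2 ratios had 0.5 counts added. Genes at 1 CPM or more in either library were measured. The script was tested on simulated counts.

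The members, the 9 further lists and the 8 marker lists were chosen with earlier results of these data known. All members are named, with up to 2 called genes at each end of each further list, the most abundant gene of each marker list, Psmd14 and Foxp3. Mxd3, Mycn and the other marker genes given by name were added after their values were seen. Coordinates and exon lengths come from GENCODE M21 (mm10). Near copies are pseudogene transcripts with at least 90% identity over 300 bases (BLAST 2.17.0). Other steps ran in Python 3.11.15 (scipy 1.17.1, matplotlib 3.10.9).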

Additional observations from a re-analysis of the deposited data

How the results depend on the processing

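With 1 library per genotype no p-value is given, and the ratios hold for these libraries only. No paired analysis was possible because each genotype has 1 library, and no replicate could be left out. Plain totals, upper quartile factors, DESeq2 size factors and the deposited FPKM kept the call of each single gene in 158 of 160 cases, the exceptions being Nolc1 and Rrp12, which were called lower with DESeq2 size factors and raised the count of members called lower to 5. The count of members called lower was 15 where intervals had to lie beyond a ratio of 5 to 4, 1 beyond 2-fold, 8 by the ratio alone beyond 1.5-fold and 26 beyond 1-fold, where 9 were called higher. The share of all genes called was 36.2%, 11.0%, 36.9% and 69.6% under the same rules, 21.9% as reported and 9.52% with no filter on low counts. The rule of an interval off 1-fold was chosen after seeing the data. The plan was to compare levels of different genes only as the deposited FPKM. The levels per kilobase of annotated exon depart from that plan. With the FPKM-implied lengths the summed level of the repressors was 10.3 times Myc in the knockout and 7.9 times in the wild-type library. The length so implied for Myc is longer than its whole annotated gene, so these 2 values are not reliable. A filter at 5 CPM moved the median log2 ratio of snoRNA host genes to 0.459. No member had over 10% of its exon length shared with another gene, so leaving such members out changed nothing. Of the values recomputed, the median of RNA exosome genes alone changed sign, from -0.0378 as reported to 0.00213 with upper quartile factors.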
